A study of Homo sapiens with 2 samples.

Results

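The 10 genes described here encode heparan sulfate proteoglycans, of 58884 genes in the deposited table. They were chosen by name, with earlier results of these data known. The syndecans are SDC1, SDC2, SDC3 and SDC4, and the glypicans GPC1, GPC3, GPC4 and GPC6. The basement membrane proteins are agrin (AGRN) and perlecan (HSPG2). RNA was measured in TPC-1, an established line of human papillary thyroid carcinoma that carries a CCDC6-RET fusion. One culture received a control siRNA and the other an siRNA against XPR1, the phosphate exporter, and each gave 1 library. The sources used here do not give the siRNA sequences, the dose or the hours between transfection and harvest. No difference below has a replicate check, so no p-value is given, and higher and lower describe these 2 libraries only.

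A heparan sulfate proteoglycan is a core protein with long sulfated sugar chains. Syndecans cross the membrane and couple the chains to the cytoskeleton, glypicans are held at the surface by a lipid anchor, and agrin and perlecan are secreted into basement membranes. The chains bind growth factors, Wnt proteins, chemokines and laminins, and enzymes of the Golgi set their length and sulfation. Here RNA was measured, not core protein or chains.

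XPR1 itself was 39.2 TPM with control siRNA and 5.31 TPM with XPR1 siRNA, so 13.5% of the control level was left (95% interval 11.6% to 15.7%). TPM (transcripts per 1000000 of a library) is corrected for gene length, so levels of different genes can be set side by side. Intervals are Clopper-Pearson intervals on reads recovered from the TPM values and cover counting error only. The libraries held about 15780000 and 15150000 counted reads. Of the thyroid markers, PAX8 was 588.1 and 408.6 TPM and FOXE1 11.1 and 13.7 TPM, while NKX2-1, TSHR and SLC5A5 were listed at 0. Of the epithelial markers, KRT8 was 49.8 and 37.0 TPM, KRT18 135.9 and 94.0 TPM, KRT7 11.1 and 3.39 TPM, KRT19 0.304 and 1.05 TPM, and EPCAM was listed at 0. None of 5 leukocyte markers passed 0.598 TPM, and CD3E and LYZ were listed at 0. The 5 endothelial markers summed to 2.75 and 1.70 TPM. The 6 fibroblast markers summed to 1.52 and 7.85 TPM, of which COL1A1 made up 1.04 and 6.67 TPM and DCN was listed at 0. COL1A1 alone among these 6 reached a mean of 1 TPM. The part of COL1A1 and of the lower keratin levels in the results below was not tested.

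The promoters printed are that of SDC4, the most abundant member and the one called lower, and those of SDC3 and GPC1, both called higher. RefSeq windows on GRCh38.p14 were used for 7 of the 10 members. Each sequence is the 250 bases before the RefSeq start, on the strand of the gene. SDC4 is chr20:45348425-45348674 (minus strand), SDC3 is chr1:30908759-30909008 (minus strand) and GPC1 is chr2:240435413-240435662 (plus strand). Capitals mark matches to the GC box GGGCGG on either strand and, in SDC4, to the NF-kB consensus.
SDC4: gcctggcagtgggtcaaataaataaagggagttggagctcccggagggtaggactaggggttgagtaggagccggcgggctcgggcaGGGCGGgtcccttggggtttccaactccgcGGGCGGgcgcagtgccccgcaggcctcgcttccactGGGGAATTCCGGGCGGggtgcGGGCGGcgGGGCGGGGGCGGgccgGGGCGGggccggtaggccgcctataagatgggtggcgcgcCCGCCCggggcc
SDC3: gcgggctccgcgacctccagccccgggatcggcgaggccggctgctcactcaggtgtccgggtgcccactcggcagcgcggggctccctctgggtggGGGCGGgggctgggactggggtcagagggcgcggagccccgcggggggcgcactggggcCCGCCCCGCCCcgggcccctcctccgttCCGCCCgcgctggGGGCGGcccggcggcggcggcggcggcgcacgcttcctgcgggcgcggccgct
GPC1: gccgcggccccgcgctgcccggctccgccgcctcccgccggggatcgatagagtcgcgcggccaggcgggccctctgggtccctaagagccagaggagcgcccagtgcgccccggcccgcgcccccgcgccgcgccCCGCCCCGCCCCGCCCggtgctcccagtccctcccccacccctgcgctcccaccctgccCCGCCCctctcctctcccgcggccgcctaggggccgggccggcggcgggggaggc

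The SDC4 window held 1 match to the NF-kB consensus, from 97 to 88 bases before the start, and 8 GC boxes, 1 of which directly followed the NF-kB match. No base was shared between motifs of different kinds. The SDC3 window held 5 GC boxes, the GPC1 window 4, and neither held the NF-kB consensus. One of the SDC1 windows, of a gene called higher, also held 1 NF-kB match. The AP-1 motif TGANTCA was in none of the windows used for the 7 members. No window was used for SDC2, GPC3 or AGRN, so their motifs were not tested. Of 35116 windows of the same length, 9.96% held the NF-kB consensus, 6.57% the AP-1 motif and 42.6% a GC box. Such matches are letters in a window and do not show that a factor binds there.

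Of the 10 members, 8 had a mean of at least 1 TPM over the 2 libraries and could be compared. A gene was called higher or lower where TPM + 1 differed by 1.5-fold or more, a difference of 0.585 on the log2(TPM + 1) scale. SDC1, SDC2, SDC3 and GPC1 were called higher after XPR1 siRNA and SDC4 was called lower. GPC6, AGRN and HSPG2 were within the threshold, and GPC3 and GPC4 were listed at 0 in both libraries. The same rule called 38.3% of all 16319 genes tested, 21.7% higher and 16.6% lower. Among the 11698 protein-coding genes it called 20.7% higher and 11.1% lower. The median difference of the 8 members was 0.59 on the log2(TPM + 1) scale, against 0.05 over all genes and 0.10 over protein-coding genes. Members spanned -0.80 to 3.30 on that scale, so the family did not move one way.

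**Figure D1:**
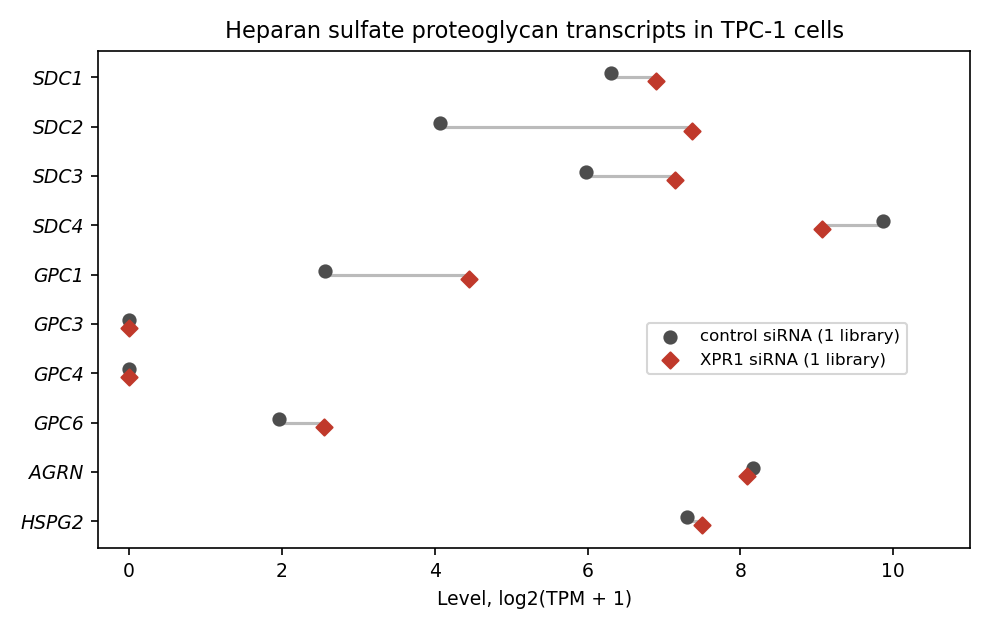
Level of each of the 10 genes in the control siRNA library (grey circles) and the XPR1 siRNA library (red diamonds), 1 library each, as log2(TPM + 1). SDC2 and GPC1 lie furthest to the right of their control values, SDC4 lies to the left of its own, and GPC3 and GPC4 sit at 0.

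The syndecans differed most in their balance. SDC2 (ENSG00000169439, chromosome 8, 96493351 to 96611780, plus strand of GRCh38), a syndecan known from mesenchymal and neural cells, was 15.7 TPM with control siRNA and 164.2 TPM with XPR1 siRNA. That is 10.4-fold higher (9.27 to 11.8), from about 301 and 3024 reads, and its log2(TPM + 1) difference of 3.30 lay above those of 99.9% of the genes tested. It was the scarcest syndecan in the control library and was second to SDC4 after XPR1 siRNA.

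SDC4 (ENSG00000124145, chromosome 20, 45325288 to 45348424, minus strand), the syndecan of focal adhesions, was 933.0 TPM with control siRNA and 535.0 TPM with XPR1 siRNA. It was 1.74-fold lower (1.69 to 1.80), a log2(TPM + 1) difference of -0.80, with 11.4% of tested genes below it. It remained the most abundant of the 10 genes in both libraries. In bulk RNA, less transcript in each cell and fewer cells with a high level cannot be told apart.

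SDC3 (ENSG00000162512, chromosome 1, 30869467 to 30908761, minus strand), best known from the nervous system, was 62.0 and 140.9 TPM. It was 2.27-fold higher (2.15 to 2.40), with a log2(TPM + 1) difference of 1.17. SDC1 (ENSG00000115884, chromosome 2, 20200797 to 20225433, minus strand), the main syndecan of epithelia and plasma cells, was 77.9 and 117.7 TPM. Its TPM ratio was 1.51 (1.40 to 1.63). The SDC1 difference of 0.589 on the log2(TPM + 1) scale lay just past the threshold, and it fell short with median-of-ratios scaling (0.534), upper-quartile scaling (0.499) and a pseudocount of 5 (0.566).

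Summed over the 4 genes, syndecan transcripts were 1089 TPM with control siRNA and 957.9 TPM with XPR1 siRNA, a ratio of 0.880. Within that sum, the share of SDC4 was 85.7% in control and 55.9% after XPR1 siRNA. The share of SDC2 was 1.44% and 17.1%, that of SDC3 5.70% and 14.7%, and that of SDC1 7.16% and 12.3%. The total thus differed less than the make-up: the syndecans other than SDC4 each took a larger share in the XPR1 siRNA library.

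**Figure D2:**
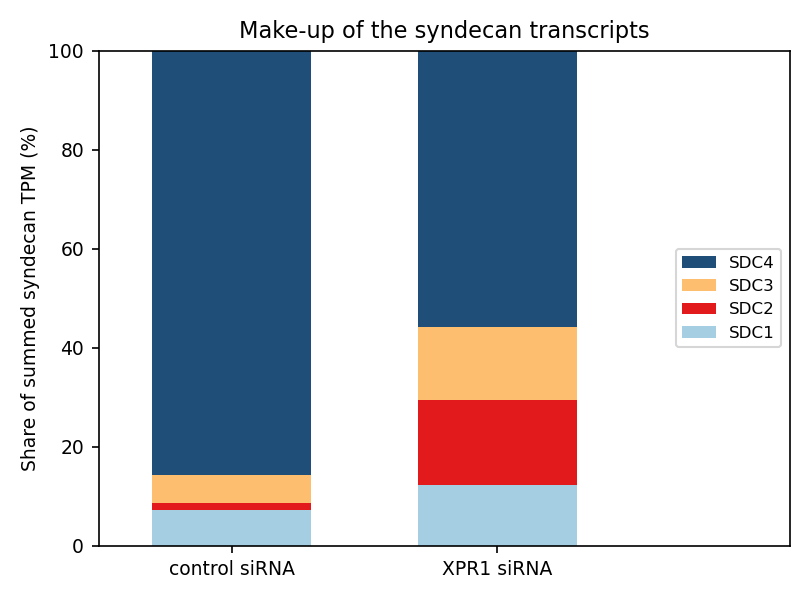
Share of each syndecan in the summed syndecan TPM, in percent, for the control siRNA and the XPR1 siRNA library (1 library each). SDC4 takes 85.7% of the left bar and 55.9% of the right one, and SDC2 1.44% and 17.1%.

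The glypicans were scarce. GPC1 (ENSG00000063660, chromosome 2, 240435671 to 240468078, plus strand), a glypican that binds FGF2 and is overexpressed in several carcinomas, was 4.91 TPM with control siRNA and 20.8 TPM with XPR1 siRNA. It was 4.24-fold higher (3.50 to 5.15), from about 135 and 550 reads, and its log2(TPM + 1) difference of 1.88 lay above those of 97.8% of tested genes. GPC6 (ENSG00000183098, chromosome 13, 93226842 to 94407401, plus strand), which takes part in skeletal growth, was 2.89 and 4.84 TPM.

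The TPM ratio of GPC6 was 1.67 (1.25 to 2.24), but at this low level its difference on the log2(TPM + 1) scale, 0.585, stayed just under the threshold. It passed with a pseudocount of 0.1 (0.72) and with the recovered reads (0.74). SDC1 and GPC6 are therefore the members nearest the threshold, on either side of it. An antisense gene without a symbol overlaps 7.36% of the exonic bases of GPC6 and was 0.336 and 0 TPM, and the library kit does not keep strand. The glypican sum was 7.80 TPM with control siRNA and 25.65 TPM with XPR1 siRNA.

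GPC3 (ENSG00000147257, chromosome X, 133535745 to 133985895, minus strand), the glypican mutated in an overgrowth syndrome and a marker of liver cancer, was listed at 0 in both libraries. A count of 0 allows up to 0.262 TPM with control siRNA and 0.273 TPM with XPR1 siRNA. GPC4 (ENSG00000076716, chromosome X, 133300103 to 133415490, minus strand), its neighbour, was also listed at 0, which allows up to 0.143 and 0.149 TPM. No fold is given for either gene.

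The genes that flank this pair on chromosome X were also low or listed at 0. From MBNL3 to CCDC160 (chromosome X, 132369317 to 134246207), 7 protein-coding genes in a row were below 1 TPM in both libraries and 5 of them were listed at 0. The other 2 were MBNL3, at 0.0971 and 0 TPM, and CCDC160, at 0 and 0.138 TPM. One of the 5 listed at 0 is HS6ST2, a heparan sulfate 6-O-sulfotransferase. The genes on either side were expressed, RAP2C at 47.2 and 21.8 TPM and PHF6 at 24.5 and 23.0 TPM. Of the 41 protein-coding genes within 2000000 bases of GPC3, 26 were below 1 TPM in both libraries, and the longest such run, elsewhere in the window, was 10 genes. On chromosome 13 the gene next to GPC6, GPC5, was listed at 0 in both libraries.

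**Figure D3:**
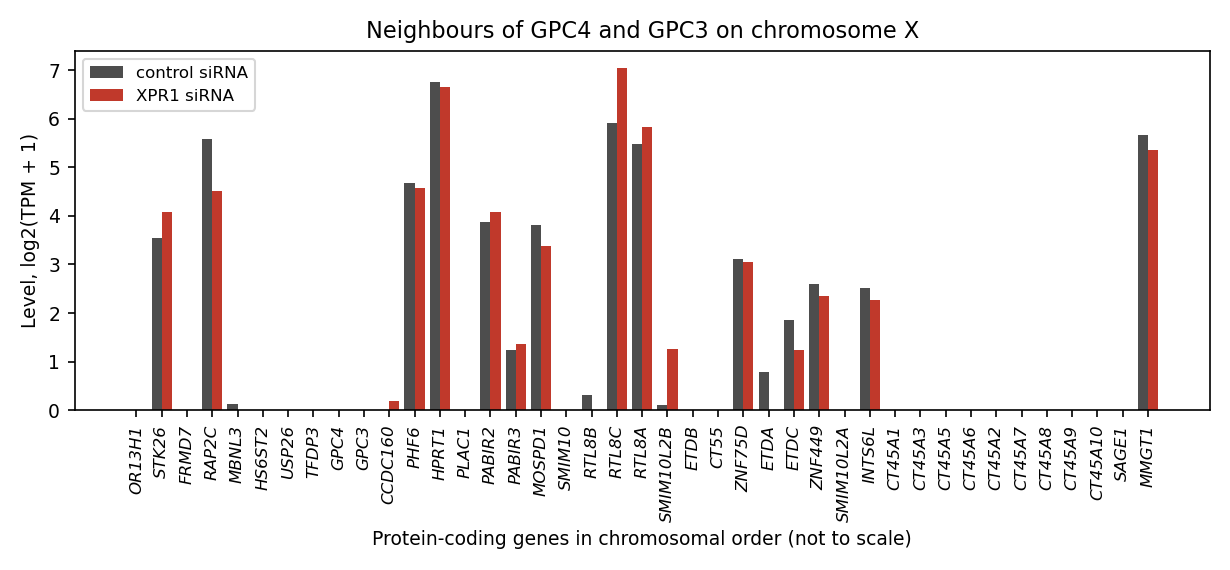
Level as log2(TPM + 1) of the 41 protein-coding genes within 2000000 bases of GPC3, in chromosomal order, in the control siRNA (grey bars) and XPR1 siRNA (red bars) library. The 7 genes from MBNL3 to CCDC160, with GPC4 and GPC3 among them, are at or near 0 between RAP2C and PHF6.

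The basement membrane proteoglycans were close to control. Agrin (AGRN, ENSG00000188157, chromosome 1, 1020123 to 1056118, plus strand), which clusters acetylcholine receptors at the synapse and binds laminins elsewhere, was 285.0 TPM with control siRNA and 269.6 TPM with XPR1 siRNA. Its TPM ratio was 0.946 (0.922 to 0.970). Perlecan (HSPG2, ENSG00000142798, chromosome 1, 21822245 to 21937297, minus strand), the large proteoglycan that links laminin and collagen networks, was 156.7 and 179.5 TPM.

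The TPM ratio of HSPG2 was 1.15 (1.12 to 1.17). On the log2(TPM + 1) scale HSPG2 differed by 0.195 and AGRN by -0.080, and upper-quartile scaling moved these to 0.105 and -0.171. With about 11776 to 13196 reads a library, counting error is small for both genes, but the spread between cultures is unknown and may exceed these differences. The 2 genes summed to 441.7 and 449.1 TPM. LDLRAD2, on the other strand, shares 11.7% of the exonic bases of HSPG2 and was 0.264 and 0.110 TPM.

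**Figure D4:**
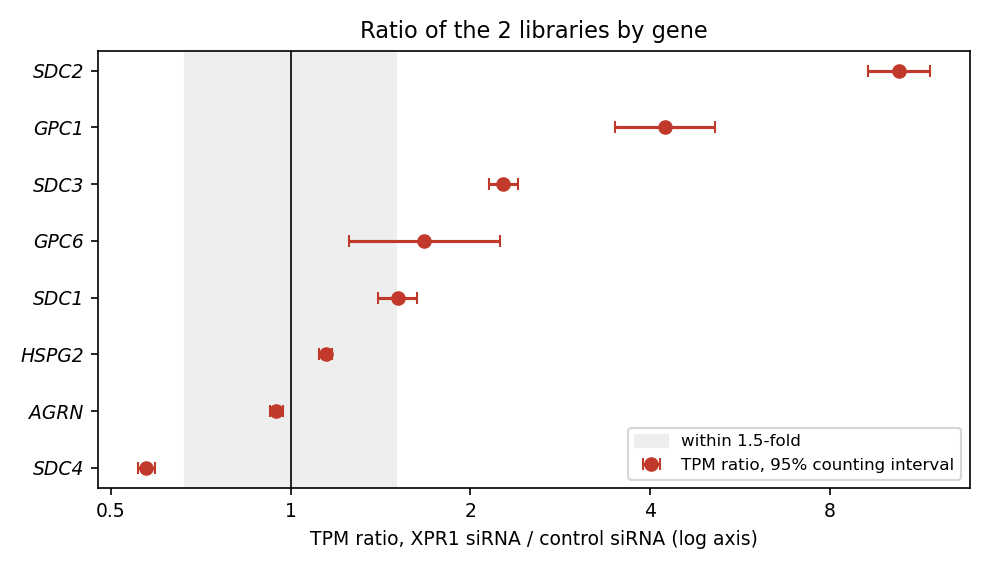
Ratio of TPM, XPR1 siRNA over control siRNA, for the 8 genes that were compared, on a log axis with 95% Clopper-Pearson intervals for counting error. The grey band marks TPM ratios within 1.5-fold; calls use log2(TPM + 1), on which GPC6 stayed inside. SDC2 stands at 10.4 and SDC4 at 0.573.

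In order of level, the control library ran from SDC4 through AGRN, HSPG2, SDC1, SDC3, SDC2 and GPC1 to GPC6. Neighbours in that order were between 1.26-fold and 3.94-fold apart, the closest being SDC1 and SDC3. After XPR1 siRNA the order was SDC4, AGRN, HSPG2, SDC2, SDC3, SDC1, GPC1 and GPC6. There HSPG2, SDC2, SDC3 and SDC1 lay close together, with steps of 1.09-fold, 1.17-fold and 1.20-fold, and with 1 library a group the order among them was not tested. All 10 genes summed to 1538 TPM with control siRNA and 1433 TPM with XPR1 siRNA, a ratio of 0.931.

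Other carriers of heparan sulfate, 10 genes of which 7 had a mean of at least 1 TPM, went both ways, with 2 higher, 1 lower and a median of 0.15 on the log2(TPM + 1) scale. As shares, 28.6% were higher and 14.3% lower, against 21.7% and 16.6% of all genes and 20.7% and 11.1% of protein-coding genes. Several of these carry the chains only in part. NRP1, the co-receptor of VEGF and semaphorins, was 22.2 and 88.1 TPM, 3.98-fold higher (3.72 to 4.25). The testican SPOCK1 was 23.0 and 48.7 TPM. CD44, the hyaluronan receptor whose chain-bearing variant cannot be told from the others in gene totals, was 2255 and 698.9 TPM, 3.23-fold lower (3.18 to 3.27). COL18A1, the basement membrane collagen with heparan sulfate chains, was 31.5 and 39.0 TPM, and SLC19A1 on the other strand shares 16.4% of its exonic bases.

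Several enzymes that build and modify the chain were called higher. Of 21 polymerases and modifying enzymes, 10 had a mean of at least 1 TPM, of which 6 were called higher and 1 lower, against 21.7% and 16.6% of all genes, with a median of 0.64. With median-of-ratios or upper-quartile scaling, 5 were called higher and 2 lower. The polymerase subunits EXT1 and EXT2 were 96.7 and 197.4 TPM and 73.7 and 142.5 TPM, 2.04-fold (1.96 to 2.13) and 1.93-fold (1.82 to 2.05) higher. EXTL2, a related transferase, was 13.2 and 28.6 TPM. GLCE, the epimerase that turns glucuronic into iduronic acid, was 8.26 and 18.6 TPM, 2.25-fold higher (1.92 to 2.64).

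The genes of that list named in this paragraph, called or not, were singled out after their values were seen. Of these, HS2ST1 and HS6ST1 were called higher and HS3ST3B1 lower. HS2ST1, the 2-O-sulfotransferase, was 23.4 and 38.0 TPM, and HS6ST1, a 6-O-sulfotransferase, 7.24 and 11.6 TPM. HS3ST3B1, a 3-O-sulfotransferase, was 56.5 and 30.3 TPM, 1.87-fold lower (1.70 to 2.05). HS3ST3A1, which is nearly identical in its catalytic part, was 47.4 and 31.9 TPM, and reads that fit both genes may have been counted for either or neither. NDST1, the main N-sulfotransferase, was 107.8 and 150.1 TPM, within the threshold. HS3ST1, a 3-O-sulfotransferase with a mean just under 1 TPM, was too low to be called. It was 0.446 and 1.52 TPM, from about 15 and 51 reads (ratio 3.42, 1.96 to 6.77).

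Of 9 genes that make the linker between core protein and chain, 8 were tested. Of these, 1 was called higher (12.5%) and none lower, against 21.7% and 16.6% of all genes. Their median was 0.15. The called gene was PXYLP1, a phosphatase that acts on the linker xylose, at 2.47 and 5.59 TPM. The xylosyltransferase XYLT2 was 31.6 and 44.0 TPM, the xylose kinase FAM20B 67.2 and 92.7 TPM and UXS1, which makes UDP-xylose, 92.0 and 75.8 TPM, all within the threshold. XYLT1, singled out once its value was known, was listed at 0 in both libraries. The difference between the linker and the chain lists was not tested.

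Supply of sulfate to the Golgi was described by 7 genes, all tested, with a median of 0.45. Of these, 3 were higher (42.9%) and none lower, against 21.7% and 16.6% of all genes. PAPSS1, which makes the sulfate donor PAPS, was 35.7 and 81.7 TPM, 2.29-fold higher (2.06 to 2.54), and its relative PAPSS2 was 84.7 and 115.9 TPM. The Golgi PAPS carrier SLC35B2 was 59.7 and 109.1 TPM and the sulfate importer SLC26A2 16.6 and 27.1 TPM. These genes also serve chondroitin sulfate and other sulfated products.

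Of 4 genes that edit finished chains outside the cell, only the heparanase gene HPSE had a mean of at least 1 TPM, at 3.19 and 9.77 TPM, 3.07-fold higher (2.31 to 4.17). The sulfatase SULF1 was listed at 0. Of 8 lysosomal enzymes that degrade heparan sulfate, 1 was higher and 1 lower, with a median of 0.24. Each is a share of 12.5%, against 21.7% higher and 16.6% lower over all genes. Among protein-coding genes the shares were 20.7% higher and 11.1% lower. ARSG, the glucosamine-3-sulfatase, was 11.8 and 5.76 TPM, 2.05-fold lower (1.69 to 2.50). Of the exonic bases of ARSG, 12.6% are shared with WIPI1 (35.6 and 32.3 TPM) and 2.19% with SLC16A6 (71.0 and 26.3 TPM), both on the other strand, and their part in the ARSG values was not tested. IDUA was 3.91 and 6.13 TPM and HGSNAT 72.3 and 98.9 TPM.

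Proteases and other enzymes that release or process the core proteins went both ways, with 3 of 8 tested higher, 2 lower and a median of -0.15. These are shares of 37.5% and 25%, against 21.7% and 16.6% of all genes. ADAM10, a sheddase of many surface proteins, was 69.3 and 138.3 TPM, 1.99-fold higher (1.93 to 2.07). PRSS12, the neurotrypsin that cleaves agrin, was 1.57 and 4.82 TPM. MMP14, a membrane protease that sheds SDC1, was 638.2 and 340.2 TPM, 1.88-fold lower (1.82 to 1.94), and MMP9 was 12.5 and 2.21 TPM, 5.64-fold lower (3.53 to 9.43).

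Of 8 intracellular partners of syndecans, 2 were higher (25%) and 1 lower (12.5%), with a median of -0.03. Over all genes, 21.7% were higher and 16.6% lower, and over protein-coding genes 20.7% and 11.1%. Median-of-ratios scaling left 1 partner called higher and upper-quartile scaling 0, with 1 lower under both. The scaffold GIPC1 was 47.8 and 73.7 TPM, the cytoskeletal linker EZR 268.7 and 429.6 TPM and the kinase PRKCA, which SDC4 binds, 38.5 and 52.0 TPM. SDCBP2 was 2.41 and 0.193 TPM and rests on 27 and 2 reads, a TPM ratio of 0.080 (0.0089 to 0.306). SDCBP2, the gene called lower, reached a mean of 1 TPM only through the control library, so that call is partly set by the floor. Syntenin (SDCBP), picked out once its value was known, was 283.3 and 272.2 TPM.

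Among basement membrane partners and receptors, 16 of 22 genes were tested, with 6 higher (37.5%), 3 lower (18.8%) and a median of 0.20. The shares over all genes were 21.7% higher and 16.6% lower. The laminin chain LAMB3 was 2554 and 533.4 TPM, 4.79-fold lower (4.69 to 4.89). The collagen IV chains COL4A4 and COL4A5 were 0.988 and 4.99 TPM and 13.7 and 35.3 TPM, 5.05-fold (3.61 to 7.22) and 2.57-fold (2.35 to 2.81) higher. COL4A4 reached a mean of 1 TPM only through the XPR1 siRNA library, so the count higher is partly set by the floor. Singled out after their values were seen, the nidogens NID1 and NID2, which bind perlecan, were 103.0 and 199.8 TPM and 45.8 and 106.0 TPM. The agrin receptor LRP4, chosen likewise, was 8.45 and 17.8 TPM. Agrin and perlecan were within the threshold. Some genes of this list were called in each direction, and the difference between the list and all genes was not tested.

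Of 13 heparin-binding ligands, 10 were tested, with 4 higher (40%), 5 lower (50%) and a median of -0.32. Shares over all genes were 21.7% and 16.6%. Median-of-ratios scaling left 3 called higher and upper-quartile scaling 2, with 5 lower under both. HBEGF, the heparin-binding EGF-like factor, was 152.9 and 9.64 TPM, 15.9-fold lower (13.2 to 19.3). The chemokines CXCL8 and CCL5 were 7564 and 901.1 TPM and 704.3 and 75.1 TPM. BMP4 was 5.97 and 19.9 TPM, 3.33-fold higher (2.56 to 4.34). FGF2, picked out once its value was known as a ligand that needs heparan sulfate to bind its receptor well, was 41.6 and 67.0 TPM.

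**Figure D5:**
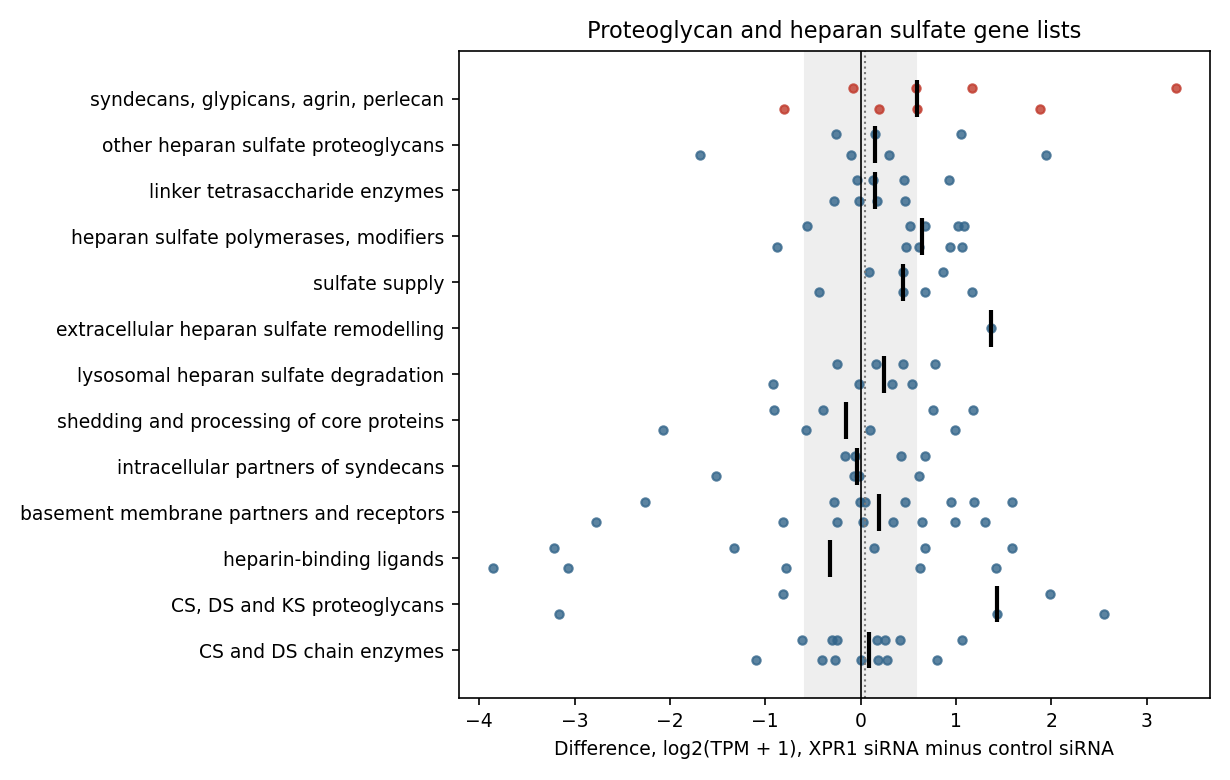
Difference on the log2(TPM + 1) scale, XPR1 siRNA minus control siRNA, for each compared gene among the 10 proteoglycan genes (red, top) and 12 related lists (blue), with the list median as a black bar. The grey band marks differences under 1.5-fold and the dotted line the median of all genes, 0.05; the CS, DS and KS lists are chondroitin, dermatan and keratan sulfate genes.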

How the data were processed

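Total RNA of 1 control siRNA and 1 XPR1 siRNA culture was sequenced from RNeasy Plus extracts using version 2 of the TruSeq RNA kit, which does not keep strand, per the labels' protocols. Tools named in the submitters' processing notes include Trimmomatic 0.38 and featureCounts 2.0.0, with the build GRCh38. Which aligner and annotation were used is not given in the sources used here. TPM values were deposited by the authors and sum to 1000000 in each library. The plan allowed for counts or normalized values, and log2(TPM + 1) was used.

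Symbols of 58472 of the 58884 genes came from an identifier table and the others from GENCODE 29, which also gave positions and exonic lengths. Reads were recovered as TPM times exonic length over a per-library step. Values came out whole, to within 0.01, in 92.4% and 92.5% of genes of 10 reads or fewer, but in 55.5% of protein-coding genes in each library. Of the 8 expressed members only SDC4 had whole reads in both, so the other reads and intervals are approximate. The limit of a count of 0 is 3 reads, and, with no molecular identifiers, reads are not independent molecules.

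The text names the 10 members, XPR1, markers and the 4 largest differences of each list, of which some genes are not reported here. Members and lists were chosen with earlier results of these data known. With 2 libraries each gene has 1 ratio, so no genes were ranked by likeness of pattern. Alternatives were other pseudocounts, floors and scalings. The method was tested on simulated reads with known folds and exact exonic lengths. Those reads held counting error only, so the spread between cultures was not covered. Python 3.11.15, pandas 2.3.3 and scipy 1.17.1 were used.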

Additional observations from a re-analysis of the deposited data

How the results depend on the processing

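The differences of the 8 expressed members kept their direction under every pseudocount, scaling and recovered-read alternative run. SDC2, SDC3, GPC1 and SDC4 were past the threshold under all of them, SDC1 and GPC6 under some. SDC2 ranged from 3.03 to 3.38 and GPC1 from 1.38 to 2.08 on the log2 scale, lowest with a pseudocount of 5. The members called numbered 3 to 5 higher and 1 lower. Over all genes, 3541 were called higher and 2716 lower, against 2076 and 1485 with a pseudocount of 5 and 2077 and 1427 from a mean of 5 TPM. They were 4772 and 4031 with no floor, 4067 and 3135 without mitochondrial genes and 4062 and 3136 with a pseudocount of 0.1. Of protein-coding genes alone, 2424 and 1294 were called. Of the 143 genes of the 12 lists, 102 had a mean of at least 1 TPM, of which 34 were higher and 18 lower, and 27 to 37 and 14 to 20 under the alternatives. Upper-quartile scaling lowered differences by about 0.09 on the log2 scale and gave 3061 higher and 3158 lower. The recovered-read comparison of members whose reads were not whole was added after the values had been seen. No paired analysis was possible because there was 1 library a group, so leaving out a replicate was not possible either. Depth limits GPC3 and GPC4, whose counts of 0 allow up to 0.273 and 0.149 TPM.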

Other observations

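Core proteins that carry chondroitin, dermatan or keratan sulfate went both ways in the same libraries. Of 15 such genes, 5 had a mean of at least 1 TPM, of which 3 were called higher and 2 lower, namely VCAN, BGN and CSPG5 against THBD and BCAN. Over all genes, 21.7% were called higher and 16.6% lower. BGN and CSPG5 reached that mean only through the XPR1 siRNA library, so the count higher is partly set by the floor. Versican (VCAN), a large matrix proteoglycan, was 80.0 TPM with control siRNA and 473.1 TPM with XPR1 siRNA. Biglycan (BGN) was 0.887 and 6.45 TPM and CSPG5 0.3798 and 2.71 TPM, from about 9 and 64 reads and 7 and 48 reads. Thrombomodulin (THBD), an anticoagulant receptor that can carry a chondroitin sulfate chain, was 71.6 and 7.13 TPM, 10.04-fold lower (8.31 to 12.2). Decorin (DCN) was listed at 0 in both libraries.

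Of 16 enzymes of chondroitin and dermatan sulfate chains, 14 were tested, with 2 higher, 2 lower and a median of 0.09. Each count is 14.3%, against 21.7% higher and 16.6% lower over all genes. Among protein-coding genes the shares were 20.7% higher and 11.1% lower. CSGALNACT2, which starts chondroitin chains on the linker shared with heparan sulfate, was 106.4 and 49.1 TPM, 2.17-fold lower (1.99 to 2.37). The 4-O-sulfotransferase CHST11 was 28.7 and 18.4 TPM. CHST14, the dermatan 4-O-sulfotransferase, was 14.5 and 31.2 TPM, 2.16-fold higher (1.83 to 2.55), and CHST12 was 1.88 and 4.03 TPM. The difference between this list and the heparan sulfate enzymes was not tested.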
